A study of Mus musculus with 2 samples.

Results

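Endothelial cells line every blood vessel, and 10 genes widely used to recognise them were read here in mouse diaphragm with and without the repressor RP58: Pecam1, Cdh5, Kdr, Flt1, Tek, Tie1, Cldn5, Aplnr, Esam and Emcn. They were taken by gene symbol from a list drawn up with earlier results of these data known. The array carried 15 probe sets whose only annotated gene symbol was one of these 10, out of 34945 probe sets with 1 gene symbol and 45101 in all. RP58, now called Zbtb18, is a zinc finger protein that represses transcription. The study asked how gene expression in skeletal muscle differs in mice that lack it.

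Both samples were total RNA of diaphragm muscle from C57/BL6 embryos at stage E18.5. The first was labelled RP58+/+ (wild type) and the second RP58-/- (knockout), and each was hybridised to 1 Affymetrix array. The labels name no other allele or treatment and do not say how many embryos or litters gave each RNA. No spread between embryos can therefore be estimated. No difference below has a replicate check, and none was tested. All values are deposited log2 signals computed by the authors with RMA, a method that corrects background and makes the distributions of the arrays nearly equal. Differences are the array labelled knockout minus the array labelled wild type.

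Endothelial cells are held together by adherens junctions, built on VE-cadherin, and by tight junctions, in which claudin-5 is a main strand protein. Their growth, survival and quiescence are governed by receptor tyrosine kinases for vascular endothelial growth factors (VEGFs) and angiopoietins, which surrounding cells such as muscle fibres and pericytes secrete. In skeletal muscle a dense capillary bed runs along the fibres, so muscle RNA always contains endothelial transcripts. In bulk RNA of this kind, fewer endothelial cells and less RNA per endothelial cell cannot be told apart.

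The labels were compared with marker genes first. The brightest probe set of Zbtb18 read 8.91 in the sample labelled wild type and 9.21 in that labelled knockout. Its place relative to the deleted part is not stated in the sources at hand, so it checks nothing. Markers of skeletal muscle fibres were bright on both arrays, with a mean log2 signal of 11.83 and 10.35 over 12 of 12 genes, and all 12 were below 0 in the difference, 11 of them by at least 1.5-fold. Hepatocyte markers were bright as well (12.78 and 13.43, 8 of 8 genes on the array), so neither sample was muscle alone. Xist, which coats the inactive X chromosome, was at 11.47 and 6.96, and the Y-linked gene Eif2s3y at 3.59 and 8.58, so genotype and sex cannot be told apart. The 24 poly-A spike-in probe sets, which read control RNAs, had a median difference of -0.75 (range -1.17 to -0.46). Scaling the arrays to them would add 0.75 to each difference given here. On that scale Aplnr alone of the 9 members above the floor would remain below 0.

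The genes as a group sat only slightly below the rest of the array, and their differences pointed both ways. Of the 10 genes, 9 had a mean signal above a floor set at the 40th percentile of the table (log2 5.52), and Tie1 did not. Read from the brightest probe set of each gene, 2 of the 9 were lower by at least 1.5-fold (0.58 on the log2 scale), Aplnr and Cldn5, and 0 were higher. Among all 14093 genes above the floor, 6.51% were lower and 3.83% higher by the same rule. These shares are the background for the list counts given below. Counted by probe set, 2 of the 11 above the floor were lower and 0 higher, against 6.49% and 3.35% of 23061 probe sets. The 9 differences ran from -0.95 to 0.34 with a median of -0.22, against a median of -0.003 for all genes. Below 0 lay 6 of the 9, against 50.4% of all genes. The only repeat measurement is that of several probe sets for a gene, whose differences scattered around their gene's mean with a pooled SD of 0.28 over 5675 genes. Of the 9, 4 lay within 1 such SD of 0, as did 64.8% of all genes, and 2 lay beyond 2 SDs, as did 11.5% of all genes. This SD covers probe sets and transcript isoforms, not embryos, dissection or hybridisation.

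**Figure D1:**
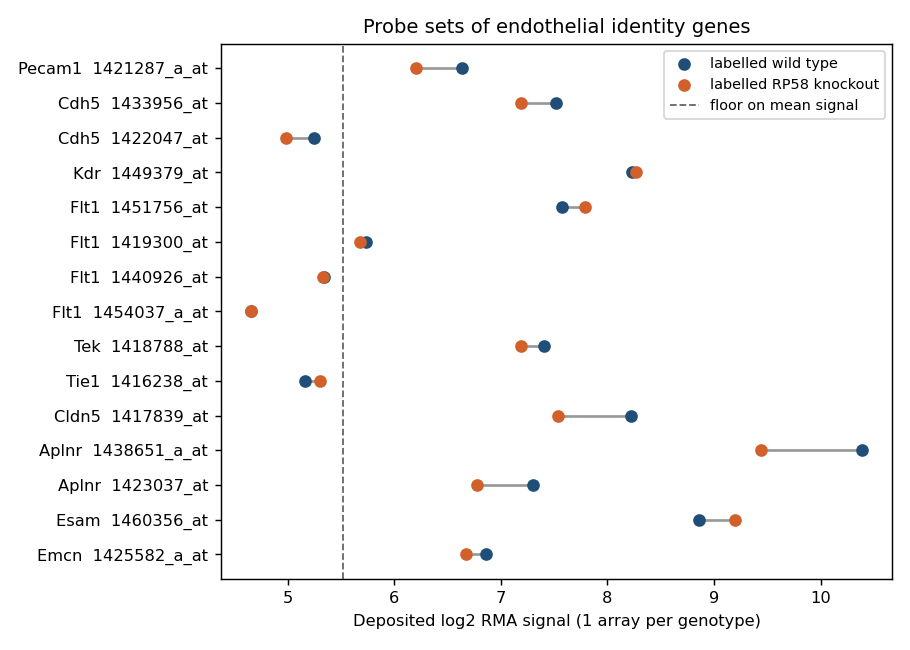
Deposited log2 RMA signal (horizontal axis) of the 15 probe sets of the 10 endothelial genes for the samples labelled wild type (blue) and RP58 knockout (orange), 1 array per genotype, with the floor at 5.52 as a dashed line. The widest gaps are those of Aplnr and Cldn5, which were lower on the array labelled knockout, whereas Esam was higher and Kdr nearly equal.

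Promoters were available in the RefSeq table (assembly GRCm38.p6) for 6 of the 10 genes: Cldn5, Kdr, Flt1, Tek, Tie1 and Emcn. RP58 is known to bind an E-box-like sequence, ACATCTG, whose core CATCTG is also an E box. Of the 6 stretches of 250 bases before the start, searched on both strands, 0 held ACATCTG, a sequence found in 3.71% of 32851 promoters of that length, and 2 held CATCTG (Kdr and Tie1), found in 14.4%. Every ACATCTG also counts as a CATCTG. The promoter of Cldn5, the only gene of the 6 that passed the 1.5-fold rule, is shown beside those that held the core, with the core in capitals (here in its reverse form, CAGATG). All read 5′ to 3′ on the strand of the gene. That of Cldn5 lies at chr16:18776597-18776846 (plus strand), that of Kdr at chr5:75978456-75978705 (minus strand) and that of Tie1 at chr4:118489850-118490099 (minus strand).
Cldn5: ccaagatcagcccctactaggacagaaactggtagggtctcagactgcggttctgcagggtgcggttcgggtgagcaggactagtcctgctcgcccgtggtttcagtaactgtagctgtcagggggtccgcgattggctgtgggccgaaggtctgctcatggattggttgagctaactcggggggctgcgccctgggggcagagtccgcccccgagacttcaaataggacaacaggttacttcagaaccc
Kdr: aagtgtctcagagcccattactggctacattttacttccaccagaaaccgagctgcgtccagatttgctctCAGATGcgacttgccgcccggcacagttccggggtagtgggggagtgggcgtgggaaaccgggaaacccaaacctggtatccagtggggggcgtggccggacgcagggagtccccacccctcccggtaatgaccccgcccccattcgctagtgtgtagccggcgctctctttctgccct
Tie1: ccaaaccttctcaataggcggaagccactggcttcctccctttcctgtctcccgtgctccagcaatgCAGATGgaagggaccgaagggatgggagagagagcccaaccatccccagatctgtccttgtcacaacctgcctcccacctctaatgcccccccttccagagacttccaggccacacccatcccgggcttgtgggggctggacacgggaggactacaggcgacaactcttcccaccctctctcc
The match began 179 bases before the start of Kdr and 183 bases before that of Tie1. The differences of these genes were 0.04 (Kdr) and 0.13 (Tie1, under the floor). The letters GGAAG are a form of the sequence bound by ETS factors, which drive much endothelial transcription. They were in 4 of the 6 promoters (Emcn, Tie1, Kdr and Flt1) and in 64.1% of all promoters, with 6 matches in Tie1. The letters GGAAG are not in the Cldn5 stretch shown. Other forms of the ETS sequence were not searched, so a stretch without GGAAG may still hold one.

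Among the junction and adhesion genes, the tight junction gene differed most and one adhesion gene pointed the other way. Claudin-5 (Cldn5), the strand protein that seals endothelial tight junctions, read 8.22 in the sample labelled wild type and 7.53 in that labelled knockout (probe set 1417839_at). The signal was thus lower by 0.69 on the log2 scale (1.61-fold), and 4.75% of all genes had a difference as low or lower. It has no second probe set to check it. VE-cadherin (Cdh5), the cadherin of endothelial adherens junctions, was at 7.52 and 7.19 on probe set 1433956_at, a difference of -0.33. Its other probe set, 1422047_at, lay under the floor at 5.25 and 4.99 and differed by -0.26. Both probe sets of Cdh5 were therefore slightly lower, within 0.07 of each other, and neither reached 1.5-fold.

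Pecam1 (CD31), an immunoglobulin-type adhesion molecule at endothelial contacts that platelets and leukocytes also carry, was at 6.64 and 6.20 on its 1 probe set, a difference of -0.44. This is 1.35-fold lower, short of the rule, and 10.9% of all genes were as low or lower. The platelet markers Itga2b and Pf4 were at 0.14 and 0.02, and the leukocyte marker Ptprc at 0.10. The whole platelet list had 5 of 7 genes above 0, a median of 0.14 and a range from -0.15 to 0.41. The leukocyte and macrophage list had 8 of 9 above 0, a median of 0.34 and a range from -0.03 to 0.63. Esam, an adhesion molecule of endothelial tight junctions and platelets, was at 8.86 and 9.20 and so higher by 0.34 (1.27-fold), with 11.9% of genes as high or higher. The differences of Cldn5 and Esam, proteins of the same junctions, lay 1.03 apart. Esam had the highest difference of the members above the floor, and only Aplnr was lower than Cldn5, so this pair was bound to lie far apart. The scatter of probe sets within genes gives an SD of 0.39 for a gap between 2 probe sets. That SD holds no spread between genes, embryos or hybridisations, so it does not test the gap. Emcn, which encodes the sialomucin endomucin of capillaries and veins, was at 6.86 and 6.68, a difference of -0.18 within the probe set SD.

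The general partners of these junctions were read as a list of their own. The list of adherens and tight junction partners had 15 genes above the floor. Of these 0 were lower, against 6.51% of all genes, and 3 were higher, against 3.83%, and the median was 0.08. The catenins that link cadherins to actin were near 0, with Ctnnb1 at 0.12, Ctnna1 at 0.10, Ctnnd1 at -0.08 and Jup at -0.09, and the scaffold Tjp1 was at 0.04. The 3 higher genes encode junction proteins that epithelia make abundantly. Cldn3 was at 7.30 and 8.20 (0.90 higher, and higher on all 4 of its probe sets), F11r at 0.74 and Cldn1 at 0.63. The other Cldn1 probe set above the floor was at 0.39, short of the rule. Several epithelial and mesothelial markers were higher on the same array: Krt19 by 1.12, Krt7 by 0.75 and the surfactant gene Sftpc by 3.64. Others were near 0, with Krt8 at 0.08, Sftpb at 0.12 and Wt1 at -0.12. The whole lists stood at 4 of 8 higher for mesothelium (mean log2 signal 9.72 and 10.24) and 3 of 4 higher for lung epithelium (6.69 and 8.08). The share of all genes was 3.83%. Nkx2-1 and Scgb1a1 lay under the floor, as did Sftpa1. Their part in the junction values was not tested.

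The receptors for VEGF were read as nearly equal on the arrays. Kdr (VEGFR2), the main signalling receptor for VEGF-A, was at 8.23 and 8.27 on probe set 1449379_at, a difference of 0.04. Flt1 (VEGFR1), which binds VEGF-A, VEGF-B and placental growth factor and in soluble form acts as a decoy, had 4 probe sets. The brightest, 1451756_at, was at 7.57 and 7.79, a difference of 0.22. The others were at 5.74 and 5.68 (1419300_at), 5.34 and 5.33 (1440926_at) and 4.66 and 4.66 (1454037_a_at). Their differences were -0.05, -0.01 and -0.002, and the last 2 were under the floor. The brightest probe set of Flt1 thus stood apart from the rest by up to 0.27, and its difference still lay within 1 SD. Which Flt1 isoform each probe set reads is not stated in the sources at hand.

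The related receptor Flt4 (VEGFR3), of lymphatic and sprouting endothelium, was at 0.15 and 0.30 on its 2 probe sets. The co-receptors Nrp1 and Nrp2 were at -0.005 and 0.32 on their brightest probe sets, with other probe sets from -0.18 to 0.33 and from -0.13 to 0.51. No receptor of this family passed the 1.5-fold rule.

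The ligands of these receptors were less uniform. Vegfb, a VEGFR1 ligand that striated muscle makes in quantity, was at 8.67 and 7.80 on its 1 probe set, 1.83-fold lower (-0.87). Vegfa, the principal angiogenic ligand, was at 0.12 and 0.03 on its 2 probe sets. Vegfc, a ligand of VEGFR3, was lower on all 3 probe sets, at -0.42, -0.27 and -0.73, although its brightest one did not reach the rule. Pgf was at -0.43, and the 3 probe sets of Vegfd ran from -0.08 to 0.38. Of these VEGF ligands Vegfb alone passed the rule. The wider list, which also holds angiopoietin and apelin ligands, co-receptors, Flt4, Ptprb and Svep1, had 12 genes above the floor. Of these 2 were lower (Vegfb and Angpt1), against 6.51% of all genes, and 0 higher, against 3.83%. The list median was -0.07. Muscle fibre markers were lower on the same array, 11 of 12 by the rule, with a mean log2 signal of 11.83 against 10.35 and a range from -3.36 (Mybpc2) to -0.55 (Myh3). Their part in the Vegfb value was not tested.

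**Figure D2:**
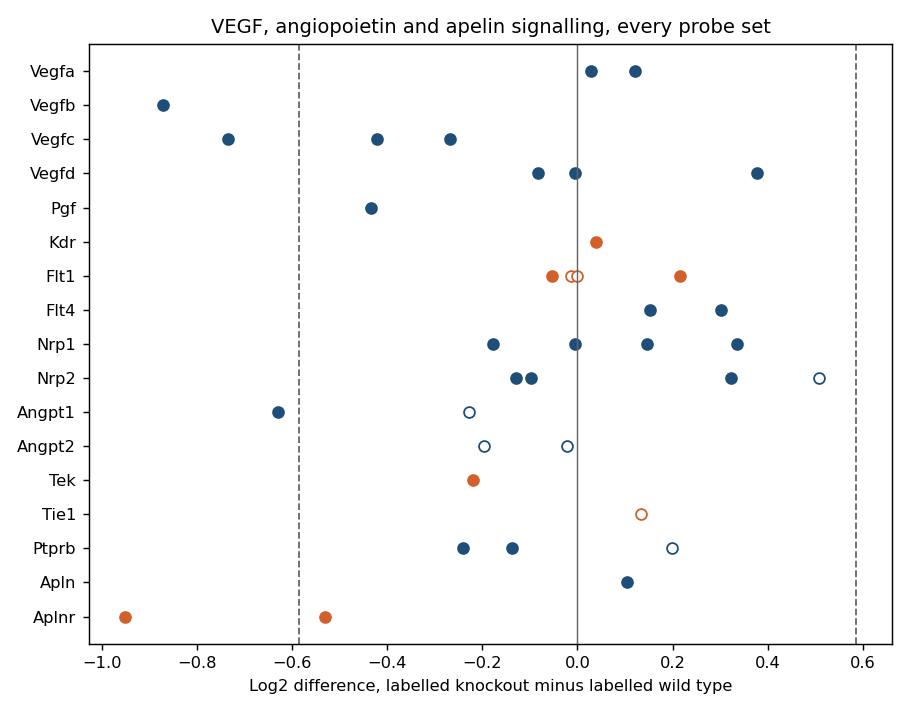
Log2 difference, labelled knockout minus labelled wild type (horizontal axis), of every probe set of VEGF, angiopoietin and apelin ligands and receptors; orange marks the endothelial identity genes, blue the others, open circles probe sets under the floor and dashed lines 1.5-fold. The probe sets of the receptors Kdr, Flt1 and Tek lie between -0.22 and 0.22, whereas Vegfb (-0.87), 1 of 2 probe sets of Aplnr (-0.95), 1 of 3 of Vegfc (-0.73) and 1 of 2 of Angpt1 (-0.63) lie past the left line.

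The angiopoietin receptors likewise stayed inside the 1.5-fold rule. Tek (TIE2), the receptor for angiopoietins that keeps vessels quiescent, was at 7.41 and 7.19 on its 1 probe set, a difference of -0.22 that is smaller than the probe set SD. Tie1, the orphan receptor that pairs with TIE2, was at 5.17 and 5.30, under the floor on both arrays. Its difference of 0.13 therefore says little about its level. Angpt1, the activating ligand made by mural and mesenchymal cells, was at 6.75 and 6.12 (1.55-fold lower, -0.63), and its other probe set under the floor was at -0.23. Angpt2, the ligand that endothelial cells release when vessels remodel, lay under the floor with -0.20 and -0.02. Ptprb (VE-PTP), the phosphatase that restrains TIE2, was at -0.14.

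Aplnr showed the largest difference of the 10 genes. It encodes the apelin receptor, a G protein-coupled receptor of venous and growing capillary endothelium. Probe set 1438651_a_at read 10.39 in the sample labelled wild type and 9.44 in that labelled knockout. Probe set 1423037_at read 7.30 and 6.77. Both were lower, by 0.95 (1.93-fold) and by 0.53 (1.44-fold), so the second fell short of the 1.5-fold rule, and their mean difference was -0.74. Of all genes, 2.56% had a difference as low as that of the brighter probe set. Its ligand Apln was at 8.12 and 8.23 (0.10), so receptor and ligand lay 1.05 apart. The other peptide ligand, Apela, was under the floor.

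Genes that are typical of endothelium but not among the 10 were evenly spread around 0. Of 30 such genes 28 lay above the floor (all but Rasip1 and Sele). By 1.5-fold 0 were lower and 0 higher, against 6.51% and 3.83% of all genes, and 15 were below 0. Their median was -0.08 and their range -0.47 to 0.49, all on the brightest probe sets. A dimmer probe set of Myct1 above the floor was at -0.65, past the rule, whereas its brightest was at -0.09. At the low end lay Gpihbp1 (-0.47), which anchors lipoprotein lipase on the capillary wall, Arhgef15 (-0.47), the endothelial nitric oxide synthase gene Nos3 (-0.36) and Calcrl (-0.36), the adrenomedullin receptor, whose other probe set above the floor was at 0.39. At the high end lay Mmrn2 (0.49), Podxl (0.38), Egfl7 (0.36) and the sphingosine phosphate receptor S1pr1 (0.31). Dimmer probe sets above the floor were at 0.08 to 0.24 for Mmrn2 and at 0.10 for Podxl. For Egfl7 a dimmer one was at -0.16, in the other direction. The pan-endothelial genes Eng, Cd34 and Vwf were at -0.08, -0.20 and 0.13. Taking these with the 9 members, 2 of 37 endothelial genes were lower by the rule, 21 were below 0 and the median was -0.10.

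**Figure D3:**
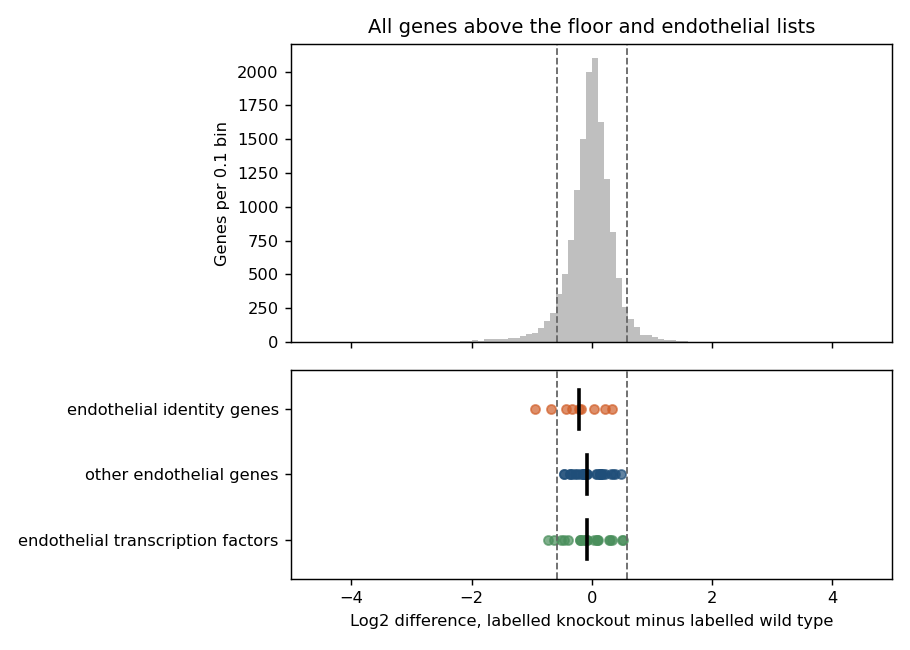
Top, number of genes per bin of 0.1 in the log2 difference (labelled knockout minus labelled wild type) for the 14093 genes above the floor; bottom, the same difference for each gene above the floor in 3 endothelial lists, with black bars at the medians and dashed lines at 1.5-fold. The endothelial identity genes have a median of -0.22, the other endothelial genes one of -0.08 with all 28 inside the lines.

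Among 21 transcription factors of endothelial cells above the floor, 2 were lower, against 6.51% of all genes, and 0 were higher, against 3.83%. Their median was -0.08. Meox2, a homeobox gene of muscle precursors and of muscle capillaries, was at 9.22 and 8.49, and its 2 probe sets gave differences of -0.74 each. Elk3, an ETS repressor, was at 8.74 and 8.11 (-0.63), and its other probe sets above the floor were at -0.14 and -0.40. The ETS factor Fli1 was at -0.51 on 1 probe set and 0.04 on another, and Erg, which holds endothelial identity, at 0.28 and -0.37, so their probe sets disagreed in direction. The SOX factors Sox17 (-0.40), Sox18 (-0.19) and Sox7 (-0.11) were within the rule, and the other Sox17 probe set above the floor was at 0.07. Klf2, a factor induced by blood flow, was at 0.50 and Foxo1 at 0.51, with dimmer Foxo1 probe sets above the floor at 0.48 and 0.03.

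Genes of arteries and veins gave no count past the rule in either direction (0 of 12, median -0.12). The arterial Notch ligand Dll4 was at -0.43 on 1 probe set and at 0.58 on another under the floor, and Notch1 at -0.34. The venous gene Ephb4 lay above 0 (0.16). For Nr2f2, also venous, the 2 probe sets above the floor disagreed in direction, with 0.32 from the brighter and -0.42 from the dimmer. Of 10 tip cell genes above the floor 0 passed, with a median of -0.05. Lymphatic genes were also within the rule (0 of 5, median -0.10), with Lyve1 at -0.35 and Pdpn at 0.25, and Prox1, which defines lymphatic identity, under the floor at 5.23 and 5.25.

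Genes of fatty acid handling in muscle capillaries split. Cd36, a fatty acid transporter of capillaries and muscle fibres, was at 9.34 and 8.66, and all 3 of its probe sets were lower, at -0.68, -0.93 and -1.12. The lipid carrier Fabp4 differed by -0.48, but a dimmer probe set above the floor read 0.22. Lpl (0.14), Aqp1 (0.08) and Cav1 (0.12) were near 0, and Cavin1 (0.41) and Aqp7 (0.36) were the highest. The list had 1 of 8 lower, against 6.51% of all genes, 0 higher, against 3.83%, and a median of 0.10.

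Endothelial genes of neighbouring organs did not move as one. Of 9 genes of liver sinusoidal endothelium, 7 were above 0 and 2 below, Lyve1 (-0.35) and Mrc1 (-0.11). By the rule 1 was higher, against 3.83% of all genes, the scavenger receptor Stab2 (6.31 and 6.98, 0.66 higher). Oit3 was at 0.51, Stab1 at 0.21 and the list median at 0.21. Hepatocyte markers were all above 0 on the same array, with a range from 0.07 (Alb) to 1.32 (Hpx) and 4 of 8 past 1.5-fold, and their part in this value was not tested. Of 4 genes taken for lung capillaries 1 was lower, against 6.51% of all genes. It was Tbx3 (-0.83), whose other probe set above the floor was at -0.40, short of the rule. Tbx2 was at -0.51, Foxf1 at -0.25 and Ednrb at 0.14, and the list median was -0.38. Car4, which defines an alveolar capillary type, was under the floor at 5.30 and 5.65. Tbx2 and Tbx3 are also made outside vessels, so the list does not read lung capillaries alone.

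Pericytes, which wrap capillaries, were read by 8 genes above the floor, with a median of -0.13. Of these 1 was lower, against 6.51% of all genes, and 0 higher, against 3.83%. Abcc9, a potassium channel subunit of pericytes that muscle also makes, was at 8.77 and 8.11 (-0.66), and lower on all 3 probe sets. Rgs5 was at -0.58, just inside the rule, and at -0.78 on a dimmer probe set, and Pdgfrb, the receptor that defines pericytes, at -0.36 on 1 probe set and 0.26 on another. Cspg4 (NG2) was at 0.24. Higd1b, whose mean signal lay under the floor, was at 6.01 and 4.92 (-1.08) and is not in these counts. Vascular smooth muscle genes had 1 of 7 lower (Smtn, -0.76), against 6.51% of all genes, and 1 higher (Myh11, 0.67), against 3.83%. Acta2 was at -0.01.

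Among blood cells, platelet genes were within the rule (0 of 7, median 0.14, Treml1 at 0.41). Leukocyte and macrophage genes had 2 of 9 higher, Aif1 (0.63) and Lyz2 (0.60), against 3.83% of all genes. Their median was 0.34, with mean log2 signals of 8.81 and 9.13. Pecam1, which these cells share, was at -0.44, and their part in that value was not tested.

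**Figure D4:**
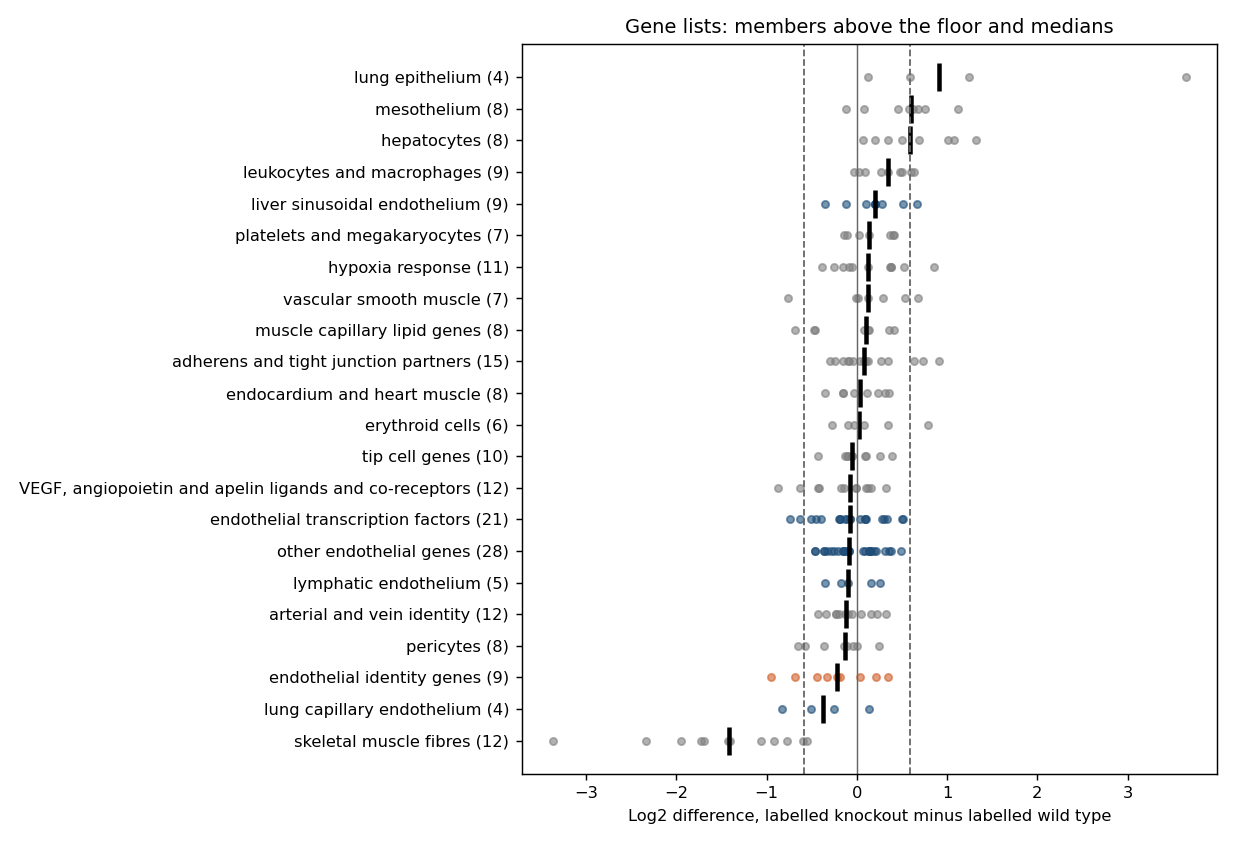
Log2 difference, labelled knockout minus labelled wild type (horizontal axis), of each gene above the floor in 22 lists (rows, number of genes in brackets), with black bars at list medians, dashed lines at 1.5-fold, the endothelial identity genes in orange and lists with endothelium in their name in blue. The endothelial identity genes have a median of -0.22, between the skeletal muscle fibres at -1.41 and the hepatocytes at 0.59.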

How the data were processed

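RNA of 2 samples, 1 per RP58 genotype, was read on Affymetrix arrays. Per the series' design text, the authors computed signals with RMA, and the submitters' processing notes list Affymetrix Expression Console 1.1. The table deposited holds log2 signals per probe set, normalised between arrays by the authors, which removes any difference in total mRNA. RMA compresses differences of dim probe sets. The design text names the 430A 2.0 array, but the probe sets are those of the larger design in the same array family.

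Differences and counts were computed in Python 3.11.15 with pandas 2.3.3, and the functions were tested on simulated data. Control probe sets and those with no or several symbols were left out. Genes were read from the brightest probe set with a mean at or above the 40th percentile. With 1 array per genotype no test was run, and precision is limited by the number of arrays. Members and the 22 lists were chosen with earlier results of these data known. Named genes are the 10 members, and per list the genes past 1.5-fold or else the largest differences, plus partners of a member. Others were named after their values were seen. The alternatives were the mean over probe sets, no floor or the 60th percentile, centring by median or loess (fraction 0.3, statsmodels 0.14.6), leaving out _s_at, _x_at and _a_at probe sets, and a 2-fold rule. Scaling to the spike-ins was chosen after seeing the data.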

Additional observations from a re-analysis of the deposited data

How the results depend on the processing

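With the 1.5-fold rule, the count of 2 lower endothelial identity genes and 0 lower other endothelial genes held with probe sets averaged, with no floor, with the 60th percentile and with both centrings. Without _s_at, _x_at and _a_at probe sets 7 members remained and 1, Cldn5, was lower, because Aplnr was then read from its other probe set at -0.53. Of all genes in that setting, 786 of 12291 were lower. At 2-fold 0 of 9 members were lower, and of all 14093 genes 326 were lower and 128 higher. The median of the other endothelial genes moved to -0.0074 with the 60th percentile and to -0.0082 without those probe set kinds. Scaled to the poly-A spike-ins, 0 of 9 members were lower, 3 were higher (Kdr, Flt1 and Esam) and Cldn5 was at 0.060. The medians on that scale were 0.53 for the members and 0.66 for the other endothelial genes. Of all 14093 genes 182 were then lower and 9990 higher. The amount of spike-in added is not stated in the sources at hand. No paired analysis was possible because each genotype had 1 array, and no array could be left out. Signal limits Tie1, which was under the floor, and the dimmer probe sets of Cdh5 and Flt1.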

Other observations

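Of 11 hypoxia response genes 1 was higher, against 3.83% of all genes, and 0 were lower, against 6.51%, with a median of 0.12. The higher gene was Angptl4 (0.85 on its brightest probe set and -0.01 on another under the floor). Vegfa belongs to this list at 0.12, the glucose transporter gene Slc2a1 was at -0.05, and the vasodilator peptide gene Adm, whose receptor includes Calcrl, was at -0.38 and -0.33 on its 2 probe sets. Red cell genes had a median of 0.03, with Car1 higher (0.79) and Slc4a1, the anion exchanger of the red cell membrane, at -0.03. Genes of endocardium and heart muscle had 0 of 8 past 1.5-fold and a median of 0.04, with the endocardial genes Npr3 and Nfatc1 at -0.15 and -0.03.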
